A study of Mus musculus with 4 samples.

Results

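The common gamma-chain family of cytokine receptors was followed in mouse lymph node cells through 7 member genes of the 32285 genes counted. The members are Il2rg, Il2rb, Il2ra, Il15ra, Il7r, Il4ra and Il21r, which were chosen by name, with earlier results of these data known. The cells came from draining lymph nodes of wildtype C57BL/6 mice, and RNA of single cells was captured in droplets, tagged with a cell barcode and a unique molecular identifier (UMI), and counted as UMIs per gene. The EV group (2 libraries) came from mice injected subcutaneously with 100 μg of extracellular vesicles from induced pluripotent stem cells (iPSC EVs), and the Control group (2 libraries) came from mice without EVs. The study text gives PBS for the controls and a harvest on day 5, whereas the sample labels give no treatment for the controls and 24 h for all 4 libraries. The study text calls the 2 libraries of a group biological replicates. Neither source says how many mice each library holds, so what part of the spread between the 2 lies between mice is not known.

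After the cell filter 16032 Control and 16693 EV cells remained of 34323 barcodes, with 50749656 to 70418672 UMIs per library before the filter. Members were measured in 5 gates defined by UMIs of other genes. CD4 T cells held Cd3e and Cd4 without Cd8a, Cd79a or Foxp3 (869 to 1531 cells per library). Regulatory T cells (Treg) held Foxp3 and Cd3e (117 to 213 cells). CD8 T cells held Cd3e and Cd8a without Cd4 or Cd79a and were split into cells without Ccl5 (825 to 1617) and with Ccl5 (178 to 244), and B cells held Cd79a without Cd3e (2503 to 4866). The Treg gate did not exclude other lineages, and Cd79a was seen in 12 to 28 and Cd8a in 7 to 21 of its cells per library. Of the Treg, 6 to 16 cells per library were also in a CD8 T gate and were counted in both. Stricter gates, tried as an alternative, required at least 2 UMIs of Cd3d, Cd3e and Cd3g together in T cells, at least 2 of Cd79a in B cells and at least 2 of Ccl5 in Ccl5+ cells, and kept Cd8a and Cd79a cells out of Treg and Ikzf2 and Ctla4 cells out of CD4 T. Summed marker levels were 7258.51 to 7532.22 CPM (counts scaled to the total of each sum) for 6 B cell genes in the B gate. They were 1302.92 to 1372.76 CPM for Cd8a and Cd8b1 in the CD8 T Ccl5- gate. Each sum holds a gene that set the gate (Cd79a and Cd8a), so these values do not test the gates. Median depth per cell was higher in the EV than in the Control libraries in every gate, for example 7559.5 and 8363 against 6007 and 6978 UMIs in CD4 T cells. Each pair of libraries shared 12 to 26 barcodes.

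Receptors of this family pair a cytokine-specific chain with the common gamma chain, the product of Il2rg, and signal through JAK1 and JAK3 to STAT proteins. IL-2 and IL-15 share the beta chain (Il2rb) and add their own alpha chains (Il2ra and Il15ra), while IL-7, IL-4 and IL-21 bind Il7r, Il4ra and Il21r. IL-7 keeps naive T cells alive, IL-2 is needed by Treg, IL-15 by memory CD8 T cells, and IL-4 and IL-21 act on B cells that receive T cell help.

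The members lie on 4 chromosomes of the mouse genome (GRCm38, GENCODE M21 gene models). Il2ra (ENSMUSG00000026770, chr2:11642807-11693193, plus strand) and Il15ra (ENSMUSG00000023206, chr2:11705290-11734317, plus strand) are neighbours with 12096 bases between them. Il4ra (ENSMUSG00000030748, chr7:125552120-125579474, plus strand) and Il21r (ENSMUSG00000030745, chr7:125603429-125633570, plus strand) are neighbours with 23954 bases between them. No protein-coding gene lies within either gap. Il7r (ENSMUSG00000003882, chr15:9505788-9530176) and Il2rb (ENSMUSG00000068227, chr15:78479256-78495271) are on the minus strand of the same chromosome, and Il2rg (ENSMUSG00000031304, chrX:101264378-101268255) is on the minus strand of the X chromosome. Gm20489 overlaps Il2rg on the same strand and was not among the genes counted, and Gm44876 overlaps Il4ra on the opposite strand.

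RefSeq promoter sequences (GRCm38.p6) were matched for 6 of the 7 members, all but Il2rb. In the 250 bases before each start, 3 motifs were searched on both strands, namely the STAT motifs TTCNNNGAA and its longer form with 4 bases between TTC and GAA, and the Runx core TGTGGT, which do not overlap one another in the members. Of 32851 promoter windows of the same length 7.02% held TTCNNNGAA, 5.85% the longer form and 14.0% TGTGGT. TTCNNNGAA was matched in Il7r (as TTCAGGGAA) and TGTGGT in Il2rg and Il21r, with 1 match each, and none of the 3 was matched in Il2ra, Il15ra or Il4ra. The windows of Il21r, which passed the EV test in CD8 T cells described further on, and of Il2rg, the shared chain, are shown 5′ to 3′ with the Runx core on either strand in capitals (Il21r chr7:125603179-125603428, plus strand, and Il2rg chrX:101268256-101268505, minus strand).
Il21r: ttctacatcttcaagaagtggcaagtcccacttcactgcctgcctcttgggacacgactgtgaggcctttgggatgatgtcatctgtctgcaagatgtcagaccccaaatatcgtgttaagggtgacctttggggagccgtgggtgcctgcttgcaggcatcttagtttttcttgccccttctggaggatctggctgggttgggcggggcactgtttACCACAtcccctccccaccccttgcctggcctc
Il2rg: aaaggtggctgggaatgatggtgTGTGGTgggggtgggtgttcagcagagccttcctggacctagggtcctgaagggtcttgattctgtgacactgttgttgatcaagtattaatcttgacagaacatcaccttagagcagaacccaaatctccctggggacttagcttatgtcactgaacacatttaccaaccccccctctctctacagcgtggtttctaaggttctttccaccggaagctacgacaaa

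The chains differed between gates in very unequal measure. Levels are CPM after a shared scaling of 20 sums (5 gates of 4 libraries), given as mean ± SD over the 4 libraries, and each of the 10 gate pairs was tested for each member with edgeR's quasi-likelihood test with library as a block. Of the 70 tests 44 passed a Benjamini-Hochberg adjusted p of 0.05, where the share of all genes that passed was 25.7% for CD4 T against Treg, 27.8% for CD4 T against CD8 T Ccl5-, 29.6% for CD4 T against CD8 T Ccl5+, 34.0% for Treg against CD8 T Ccl5-, 30.8% for Treg against CD8 T Ccl5+ and 11.8% for CD8 T Ccl5- against Ccl5+. Against B cells it was 66.9% for CD4 T, 51.7% for Treg, 69.1% for CD8 T Ccl5- and 59.6% for CD8 T Ccl5+. The gates were set without the member genes, but the pairs share libraries.

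**Figure D1:**
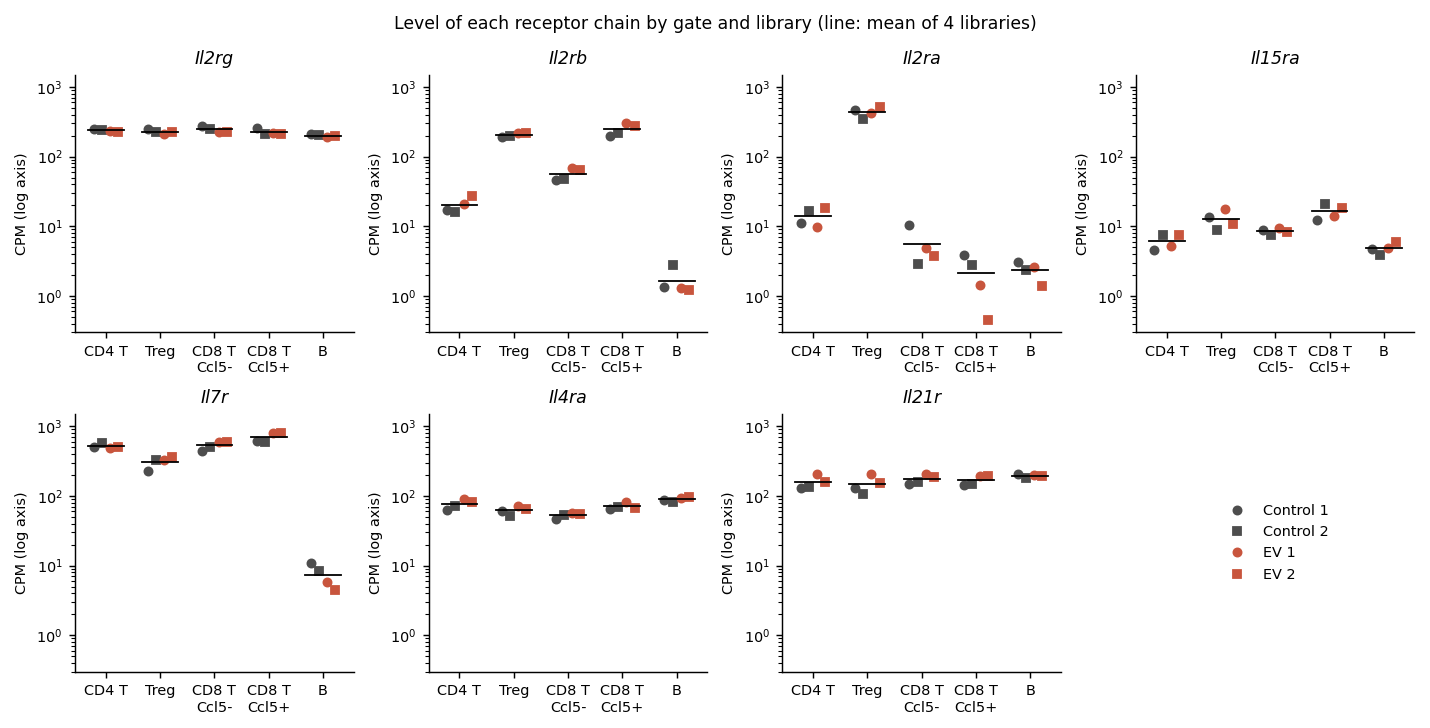
Level of each member (CPM, log axis) in the 5 gates, with 1 point per library (Control dark, EV red, circles replicate 1, squares replicate 2) and a line at the mean of the 4 libraries. Il2rg stays between 189 and 273 CPM in all gates, Il2ra is high in Treg alone, and Il2rb and Il7r are lowest in B cells.

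The shared chain Il2rg was the most even member. It stood at 244.1 ± 22.5 CPM in CD8 T Ccl5-, 236 ± 10.9 in CD4 T, 227 ± 14.8 in Treg and 223 ± 22.3 in CD8 T Ccl5+ cells (SD, n = 4). In B cells it was 213 and 202 CPM in the Control and 189 and 196 CPM in the EV libraries. No 2 T cell gates differed by the test, and each T cell gate was above B cells, by 1.11-fold to 1.22-fold. Under the stricter gates Il2rg in CD8 T Ccl5+ cells was below that in CD4 T and CD8 T Ccl5- cells (log2 differences of these from Ccl5+ cells 0.15 and 0.17, edgeR adjusted p = 0.032 and 0.025) and no longer above B cells by the test (adjusted p = 0.068).

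The beta chain Il2rb was highest, among the 5 gates, in CD8 T Ccl5+ cells (249 ± 50.4 CPM). Next came Treg (206 ± 13.8), CD8 T Ccl5- (56.7 ± 11.3), CD4 T (20.2 ± 4.94) and B cells (1.65 ± 0.730) (SD, n = 4). Its top 2 gates did not differ by the test (adjusted p = 0.088), and the 3 other neighbouring steps did. The Ccl5+ cells, a memory-like CD8 population, held 4.40-fold more than the Ccl5- cells (log2 difference 2.14, SE 0.103, edgeR adjusted p = 1.9e-12). With stricter gates Il2rb in CD4 T cells was 6.10, 4.06, 5.05 and 6.78 CPM in Control 1, Control 2, EV 1 and EV 2, and the top 2 gates differed (log2 difference of Treg from CD8 T Ccl5+ -0.32, edgeR adjusted p = 0.015).

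Among the 5 gates the alpha chain Il2ra was a Treg gene. It reached 436 ± 71.4 CPM in Treg against 13.9 ± 4.19 in CD4 T, 5.52 ± 3.41 in CD8 T Ccl5-, 2.36 ± 0.687 in B and 2.12 ± 1.48 in CD8 T Ccl5+ cells (SD, n = 4). Treg were 30.1-fold above CD4 T (log2 difference 4.91, SE 0.192, edgeR adjusted p = 1.9e-14), and CD8 T Ccl5- and Ccl5+ cells did not differ by the test. With stricter gates Il2ra in CD4 T cells was 2.12, 5.10, 2.09 and 3.84 CPM in Control 1, Control 2, EV 1 and EV 2, the log2 difference of CD4 T from Treg was -7.03, and CD4 T cells were no longer above CD8 T Ccl5- cells (log2 -0.57, edgeR adjusted p = 0.24). A few cells carried much of the low values, since 1 cell held 45 of the 111 Il2ra UMIs of CD8 T Ccl5- cells in Control 1. A UMI of Il2ra was seen in 68.4% ± 5.49 of Control and 71.0% ± 2.30 of EV Treg (SD, n = 2), and in 29.1% ± 6.64 and 31.7% ± 4.73 after each cell was thinned to 1000 UMIs. B cells, taken as the reference for free RNA, showed it in 0.755% ± 0.176 and 0.735% ± 0.152 of cells, at a median depth of 4141.5 to 5811 UMIs against 6477 to 8145 in Treg. UMIs of all 3 chains of the high-affinity IL-2 receptor were seen together in 35.6% ± 2.71 of Control and 44.1% ± 3.10 of EV Treg, and in 1.46% ± 1.25 and 2.03% ± 0.758 after thinning. The thinned shares gave p = 0.67 in an exact two-sided permutation test, for which 2 against 2 libraries allow no p below 0.33.

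The IL-15 alpha chain Il15ra was low in all lymphocyte gates. It stood at 16.4 ± 3.88 CPM in CD8 T Ccl5+, 12.7 ± 3.77 in Treg, 8.51 ± 0.847 in CD8 T Ccl5-, 6.17 ± 1.48 in CD4 T and 4.83 ± 0.882 in B cells (SD, n = 4), and no neighbours in this order differed by the test. CD8 T Ccl5+ cells were 1.96-fold above Ccl5- cells (edgeR adjusted p = 0.0013). With stricter gates Treg were below CD8 T Ccl5+ cells for Il15ra (log2 -0.69, edgeR adjusted p = 0.048).

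Among the T and B cell gates, the IL-7 receptor chain Il7r was higher in every T cell gate than in B cells. Il7r was also seen in cells outside these gates, as described further on. It stood at 696 ± 107 CPM in CD8 T Ccl5+, 531 ± 71.0 in CD8 T Ccl5-, 515 ± 40.0 in CD4 T, 308 ± 54.9 in Treg and 7.41 ± 2.84 in B cells (SD, n = 4). Treg were below CD4 T (1.69-fold, edgeR adjusted p = 3.5e-04), and CD4 T were 75.2-fold above B cells (log2 difference 6.23, and 7.86 with stricter gates). The first 3 gates in this order did not differ as neighbours (adjusted p = 0.056 and 0.88), but under the stricter gates CD8 T Ccl5- cells were below Ccl5+ cells (log2 -0.47, edgeR adjusted p = 8.0e-05). A UMI was seen in 79.1% ± 3.95 of Control and 77.0% ± 0.921 of EV CD4 T cells, against 1.69% ± 0.188 and 1.31% ± 0.0713 of B cells (SD, n = 2). Thinned to 1000 UMIs the shares were 36.4% ± 3.55 and 33.2% ± 1.11 of CD4 T cells against 0.566% ± 0.233 and 0.297% ± 0.0412 of B cells.

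Il4ra and Il21r, the chains of IL-4 and IL-21, varied less between gates than the other members except Il2rg, and had their highest mean in B cells. Il4ra stood at 88.1, 82.8, 92.3 and 96.9 CPM in B cells of Control 1, Control 2, EV 1 and EV 2, and at 77.0 ± 12.2 in CD4 T, 70.5 ± 8.19 in CD8 T Ccl5+, 61.8 ± 8.65 in Treg and 52.9 ± 4.86 in CD8 T Ccl5- cells (SD, n = 4), and only its first step, from B to CD4 T, passed the test among neighbours (adjusted p = 0.0021). Il21r stood at 194 ± 11.1 CPM in B, 173 ± 27.3 in CD8 T Ccl5-, 169 ± 25.2 in CD8 T Ccl5+, 157 ± 34.2 in CD4 T and 149 ± 43.0 in Treg, and no neighbours differed by the test. Gates further apart did differ. Il4ra in B cells was 1.70-fold above CD8 T Ccl5- cells (edgeR adjusted p = 2.3e-10). Il21r in B cells was 1.25-fold above CD4 T and 1.33-fold above Treg (edgeR adjusted p = 0.0015 and 0.0018). Under the stricter gates the step of Il4ra from B to CD4 T cells no longer passed (edgeR adjusted p = 0.092) and that of Il21r from B to CD8 T Ccl5- cells did (log2 -0.19, adjusted p = 0.040).

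The genes whose log2 CPM most resembled each member over the 20 sums, of 8143 genes with a mean of at least 10 CPM, differed in how close they came. The sums share libraries and gates, so the correlations are descriptions. Il7r was closest to Ppm1h (Pearson's r 0.996) and Slco3a1 (0.994), Il2rb to AW112010 (0.980), Traf1 (0.980) and Unc5cl (0.970), and Il2ra to Neb (0.952), Dst (0.952) and Rbm45 (0.939). Il15ra was closest to Ppp1r9b (0.907), H2afz (0.898) and Ctla2a (0.892), and Il4ra to Gpr183 (0.892), Cdk2ap1 (0.825) and Ttc32 (0.814). The even chains came less close, with Il21r nearest to Smu1 (0.884), Cstf2 (0.845) and Ubfd1 (0.822) and Il2rg to Ggact (0.868), S1pr1 (0.866) and Pgm1 (0.833).

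EV and Control libraries were then compared within each gate. Il2rb and Il21r were higher in the EV than in the Control libraries in CD8 T Ccl5- cells by the test, and no other member passed it in any gate. The test was edgeR's quasi-likelihood test, two-sided, on UMIs summed per library, with Benjamini-Hochberg adjustment over all genes of the gate and CPM scaled within the gate. In CD8 T Ccl5- cells 2 of 7 members passed, where 2.2% of all genes did (261 of 11881). In CD4 T cells it was 0 of 7 (background 2.36%), in Treg 0 of 7 (0.124%), in B cells 0 of 7 (2.55%) and in CD8 T Ccl5+ cells 0 of 6 (0.346%), where Il2ra had too few UMIs to be tested. At an unadjusted p of 0.05 from the same test, members did pass in the latter 4 gates. These were Il2rb, Il4ra and Il21r in CD4 T cells (background 17.7%), Il21r in Treg (7.57%) and Il7r in B cells (18.9%). In CD8 T Ccl5+ cells they were Il2rb, Il7r and Il21r (10.8%). Groups that did not overlap were found for 4 members in CD4 T (background 49.7%), 4 in Treg (37.1%), 5 in CD8 T Ccl5- (48.4%), 3 of those tested in CD8 T Ccl5+ (41.3%) and 5 in B cells (51.8%), against these shares of all genes.

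**Figure D2:**
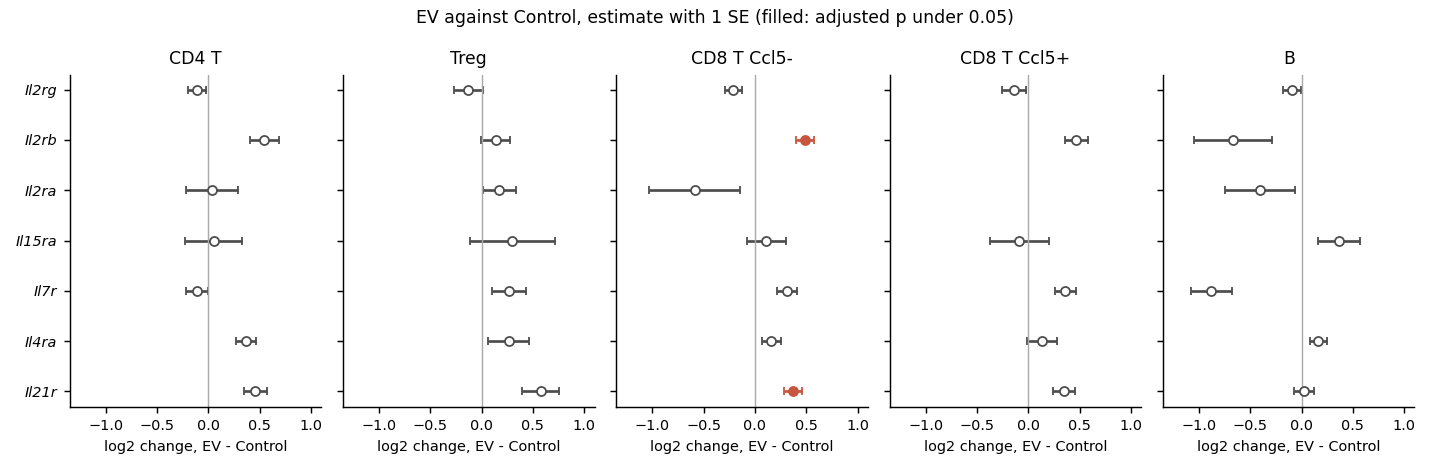
Difference between EV and Control (log2, points) with 1 standard error (bars) for each member in the 5 gates, with filled red points where the adjusted p was under 0.05. Il2rb and Il21r in CD8 T Ccl5- cells are the filled points, and Il2rg lies below 0 in every gate.

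Il2rb in CD8 T Ccl5- cells stood at 44.6 and 46.3 CPM in Control 1 and 2 and at 66.4 and 61.6 CPM in EV 1 and 2. All EV values lay above all Control values, and the rise was 1.40-fold (log2 0.49, SE 0.0881, edgeR adjusted p = 0.014). In CD8 T Ccl5+ cells the values were 189 and 203 CPM against 287 and 256, which also did not overlap but missed the threshold (log2 0.47, SE 0.110, adjusted p = 0.12). In CD4 T cells they were 17.1 and 15.8 CPM against 20.9 and 26.7 (log2 0.55, SE 0.146, adjusted p = 0.074). With stricter gates the groups of CD4 T cells overlapped (log2 0.26, edgeR adjusted p = 0.70). Treg differed little (211 and 220 against 242 and 233 CPM, log2 0.14), and B cells stood at 1.36 and 2.80 against 1.34 and 1.26 CPM.

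The Il2rb and Il21r calls in CD8 T Ccl5- cells were not kept under every alternative. Eomes and Cxcr3, picked from a list of 6 memory-like genes after their values were seen, were higher in the EV libraries of this gate. Eomes stood at 20.8 and 16.0 against 41.8 and 42.6 CPM (log2 1.21) and Cxcr3 at 11.5 and 12.5 against 18.2 and 18.3 CPM (log2 0.60). The 6 genes, with Ccl5 at 0 by the gate, summed to 891.58 and 890.6 against 1073.03 and 921.67 CPM. EV 2 thus lay little above the Control libraries. Eomes and Cxcr3 made up that small excess, as without them the sum of EV 2 lay between those of the Control libraries. The other genes of the list are not given singly. An alternative chosen after seeing the data left out every cell with a UMI of Nkg7, Cxcr3, Eomes, Klrd1 or Ly6c2. It left 58, 44, 16 and 27 of 1453, 1617, 825 and 1153 cells in Control 1, Control 2, EV 1 and EV 2. Nearly the whole gate was thus removed. The log2 difference was then -0.14 (SE 0.430) for Il2rb and -0.042 (SE 0.317) for Il21r, and none of 4284 genes tested was called. Keeping Ly6c2 cells, chosen after that result was seen, left 70, 52, 18 and 30 cells and gave 0.0033 (SE 0.380) and -0.018 (SE 0.286). These standard errors are several times those of the whole gate, so fits on so few cells cannot tell whether the calls hold. Both calls were kept with stricter gates (log2 0.49 and 0.37, adjusted p = 0.0098 and 0.032) and with doublets removed. Thinning each cell to 1000 UMIs gave 0.40 for Il2rb (adjusted p = 0.49) and 0.31 for Il21r (adjusted p = 0.33), and leaving out Control 1 ended both calls (0.46 and 0.33, adjusted p = 0.099 and 0.53). Leaving out Control 2 ended that of Il21r (0.41, adjusted p = 0.16).

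Il21r in CD8 T Ccl5- cells stood at 142 and 149 CPM in the Control and 199 and 178 CPM in the EV libraries, without overlap (1.29-fold, log2 0.37, SE 0.0861, edgeR adjusted p = 0.041). The same order was seen in CD4 T cells, with 130 and 134 against 204 and 159 CPM (log2 0.46, SE 0.112, adjusted p = 0.055), in CD8 T Ccl5+ cells, with 136 and 142 against 179 and 176 CPM (log2 0.35, adjusted p = 0.23), and in Treg, with 144 and 118 against 228 and 165 CPM (log2 0.58, adjusted p = 0.38). With stricter gates Il21r passed in CD4 T cells (log2 0.53, edgeR adjusted p = 0.034). In B cells the groups overlapped, at 210 and 184 against 204 and 197 CPM (log2 0.027, SE 0.0973). The difference between the effects in B and CD4 T cells was itself tested and passed (log2 -0.44, SE 0.103, edgeR adjusted p = 0.022, where 1.86% of all genes did), and it did not pass without Control 1 (-0.32, adjusted p = 0.40) or without EV 1 (-0.28, adjusted p = 0.34). EV 1 was the higher EV library for Il21r in every gate. In the 4 other contrasts of effects no member passed, where 0.155% of all genes passed for Treg against CD4 T, 0.101% for CD8 T Ccl5- against CD4 T, 0.031% for CD8 T Ccl5+ against CD4 T and 0% for CD8 T Ccl5+ against Ccl5-.

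**Figure D3:**
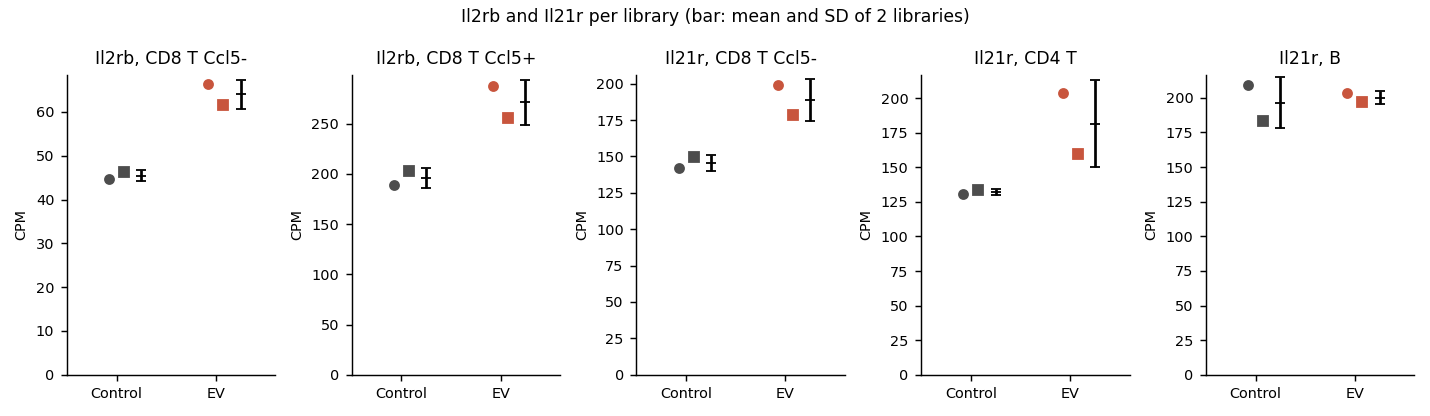
CPM of Il2rb and Il21r per library (circles replicate 1, squares replicate 2), with the mean and SD of the 2 libraries of each group beside them. The EV libraries lie above the Control libraries in the T cell gates shown, and in B cells the groups overlap for Il21r.

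Shares of cells with a UMI were also higher in the EV libraries, before and after thinning. Il2rb was seen in 26.5% ± 3.57 of Control and 34.8% ± 1.93 of EV CD8 T Ccl5- cells, and in 4.01% ± 0.0198 and 5.41% ± 0.410 after thinning (SD, n = 2). Il21r was seen in 63.8% ± 3.61 and 75.7% ± 1.06, and in 13.2% ± 0.754 and 17.0% ± 0.670 after thinning. Each difference had p = 0.33 in the exact permutation test, the smallest it can give.

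Il4ra passed the test over all filtered cells together but in no gate as first defined. Over all cells it stood at 64.7 and 65.5 CPM in the Control and 86.9 and 81.4 CPM in the EV libraries (log2 0.37, SE 0.0676, edgeR adjusted p = 0.026), where 8.2% of all genes passed. B cells, which had the highest Il4ra level, made up 34.4% ± 3.77 of Control and 55.0% ± 6.49 of EV cells (SD, n = 2), so that in all cells the share of B cells and the level per cell cannot be told apart. Within gates Il4ra was 63.6 and 70.2 against 90.6 and 82.2 CPM in CD4 T (log2 0.36, adjusted p = 0.074), 89.6 and 84.4 against 95.1 and 99.7 CPM in B (log2 0.16, adjusted p = 0.32) and 44.6 and 51.4 against 55.7 and 52.2 CPM in CD8 T Ccl5- cells (log2 0.16, adjusted p = 0.41). With stricter gates Il4ra passed in CD4 T cells (log2 0.47, edgeR adjusted p = 0.039). The call over all cells was lost with thinned cells (log2 0.34, adjusted p = 0.063), without Control 1 (0.36, adjusted p = 0.23) and without Control 2 (0.38, adjusted p = 0.17).

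Il7r did not pass the test in any gate, and its direction differed between them. It was higher in EV libraries in CD8 T Ccl5- cells (428 and 486 against 574 and 560 CPM, log2 0.31, adjusted p = 0.11) and CD8 T Ccl5+ cells (582 and 561 against 738 and 732 CPM, log2 0.36, adjusted p = 0.18), and the groups overlapped in CD4 T cells (493 and 572 against 490.1 and 496 CPM, log2 -0.11). In B cells it was 11.1 and 8.55 against 6.03 and 4.62 CPM (log2 -0.88, SE 0.198, adjusted p = 0.059). The effect in B cells differed from that in CD4 T cells by the test of the difference (log2 -0.78, SE 0.194, edgeR adjusted p = 0.034). That difference did not pass without Control 1 (-0.47) or without EV 2 (-0.60).

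In the B gate T cell transcripts moved with Il7r. The summed level of Cd3d, Cd3g and Trac, with Cd3e at 0 by the gate, was 37.8 and 27.3 CPM in the Control and 16.8 and 12.6 CPM in the EV libraries, and the order of the 4 libraries was the same for Il7r. Among B cells without a UMI of these genes (2376 to 4612 cells per library, an alternative chosen after seeing the data) Il7r was 3.25 and 3.84 against 2.78 and 3.53 CPM, and the groups overlapped (log2 -0.17, SE 0.245, adjusted p = 0.76). With doublets removed the difference was -0.29 and with stricter gates -0.43, neither past the threshold.

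**Figure D4:**
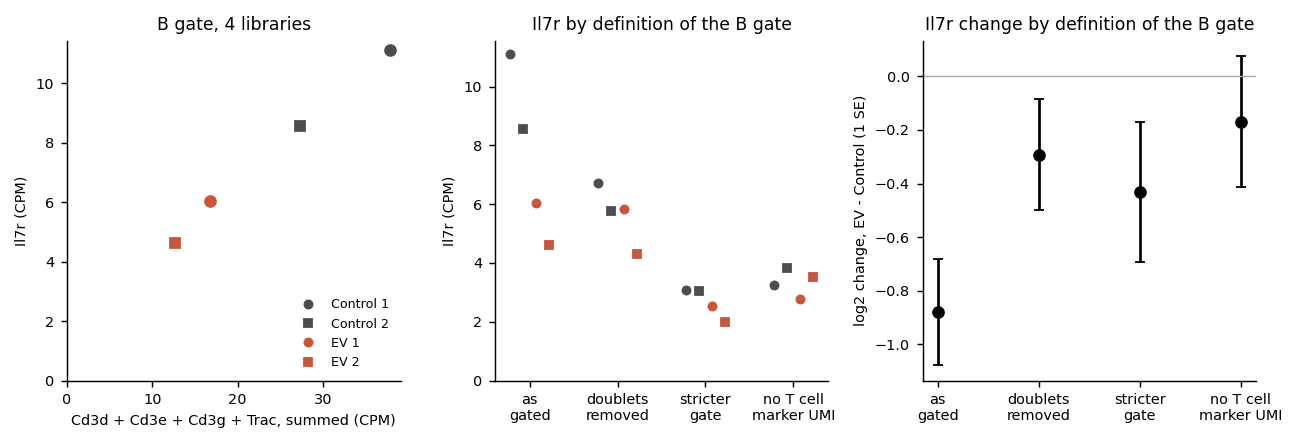
Il7r in the B gate, shown as CPM against the summed CPM of T cell markers in each library (left), as CPM per library under 4 definitions of the gate (middle) and as the log2 difference between EV and Control with 1 standard error (right). The difference runs from -0.88 as gated to -0.17 in cells without a T cell marker UMI.

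Il2rg, Il2ra and Il15ra did not pass the test in any gate. Il2rg was lower in the EV libraries in all 5 gates, by the estimate (log2 -0.21 to -0.095), with groups that did not overlap in 4 of them, and the largest difference was in CD8 T Ccl5- cells (265 and 241 against 218 and 219 CPM, SE 0.0854, adjusted p = 0.22). In Treg Il2ra was 522 and 379 against 470 and 546 CPM, with overlap (log2 0.17, SE 0.160, adjusted p = 0.88). Il15ra was 14.9 and 9.91 against 19.4 and 11.7 CPM in Treg and 4.62 and 7.41 against 5.16 and 7.38 CPM in CD4 T cells, with overlap in each. The median log2 difference over the members was 0.053 in CD4 T, 0.26 in Treg, 0.16 in CD8 T Ccl5-, 0.24 in CD8 T Ccl5+ and -0.095 in B cells. Over all genes tested it was -0.0025 to 0.0027. The scaling within each gate sets that median near 0, so it is no reference for the members.

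The other genes of the pathway were taken from lists of ligands, further chains, kinases, STATs, feedback inhibitors, targets and factors known to act on Il7r. Of the 7 ligands 4 had enough UMIs to be tested in CD4 T, 1 in CD8 T Ccl5- and 2 in B cells. None could be tested in Treg or CD8 T Ccl5+ cells. Among those tested only Il4, made by T cells that help B cells, passed in a gate. In CD4 T cells it was 0.486 and 1.99 CPM in the Control and 10.7 and 10.8 CPM in the EV libraries (log2 3.01, SE 0.370, edgeR adjusted p = 0.0015), which were 4 and 22 UMIs in 3 and 8 cells against 79 and 104 UMIs in 21 and 35 cells. The follicular helper markers Cxcr5, Pdcd1 and Bcl6 summed to 58.5 and 58.6 against 84.5 and 78.2 CPM in the same gate, and their part in the Il4 difference was not tested beyond leaving out cells with such a UMI, which gave 3.05 (adjusted p = 0.052). Il2, the other leading ligand there, was 3.53 and 4.97 against 3.12 and 2.08 CPM (adjusted p = 0.28).

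Of the 3 further chains, not all tested in every gate, none passed in a gate. Crlf2 (log2 0.071) and Il9r (log2 -1.36, edgeR adjusted p = 0.16) were the highest in CD4 T cells. Il13ra1 passed over all cells (log2 1.06, edgeR adjusted p = 0.019). Over all cells 8.2% of all genes passed, and the shares of cell types cannot be told apart from the level per cell. Of the 4 kinases Jak2 was higher in EV CD4 T cells (67.5 and 68.5 against 88.8 and 90.3 CPM, log2 0.40, edgeR adjusted p = 0.038), while Jak1, which the family uses, was not called (log2 0.059). Of the 5 STATs Stat3, used by the IL-21 receptor, was higher in CD4 T (109 and 119 against 192 and 153 CPM, adjusted p = 0.017), CD8 T Ccl5- (adjusted p = 0.026) and B cells (adjusted p = 0.039). Stat5b, used by the IL-2 and IL-7 receptors, was not called in CD4 T cells (log2 -0.0071).

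Of the 8 feedback genes Socs1, an inhibitor of JAK signalling, was higher in CD4 T (24.1 and 28.6 against 78.1 and 42.1 CPM), both CD8 T gates and B cells (log2 0.99 to 1.48, edgeR adjusted p from 0.0035 to 0.029). Socs3 passed in CD8 T Ccl5- cells alone (12.6 and 14.5 against 70.0 and 18.6 CPM, adjusted p = 0.049), where EV 1 was far above EV 2, and in CD4 T cells it was 16.5 and 16.7 against 105 and 19.6 CPM. Ptprc and Ptpn2, the highest of the list in CD4 T cells, were not called (log2 0.11 and 0.10). Of the 11 targets Bcl2, the survival gene downstream of IL-7, was higher in CD8 T Ccl5- cells (424 and 510 against 626 and 658 CPM, adjusted p = 0.038), and the interferon-inducible Ifi27l2a was higher in CD4 T and B cells (log2 0.66 and 0.86), while Ccnd3 missed the threshold in CD4 T cells (log2 0.65, adjusted p = 0.080). Of the 8 factors Runx3, a factor of CD8 T cells, was higher in CD8 T Ccl5- cells (229 and 244 against 296 and 323 CPM, adjusted p = 0.037), and Foxp1 and Ets1 were not called in CD4 T cells (log2 -0.011 and -0.19). Over all cells Sh2b3 (adjusted p = 0.044) and Runx1 (adjusted p = 0.028) also passed, with the same limit from the shares of cell types. No pathway gene was called lower in any gate, while calls over all genes went both ways. Called lower and higher were 103 and 174 of 11733 genes in CD4 T and 4 and 7 of 8876 in Treg. In CD8 T Ccl5- cells it was 106 and 155 of 11881. In CD8 T Ccl5+ cells it was 11 and 22 of 9530, and in B cells 130 and 208 of 13270. Stat3 and Socs1 were higher in EV 1 than in EV 2 in each gate, and without EV 1 Socs3 in CD8 T Ccl5- cells was 0.45.

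**Figure D5:**
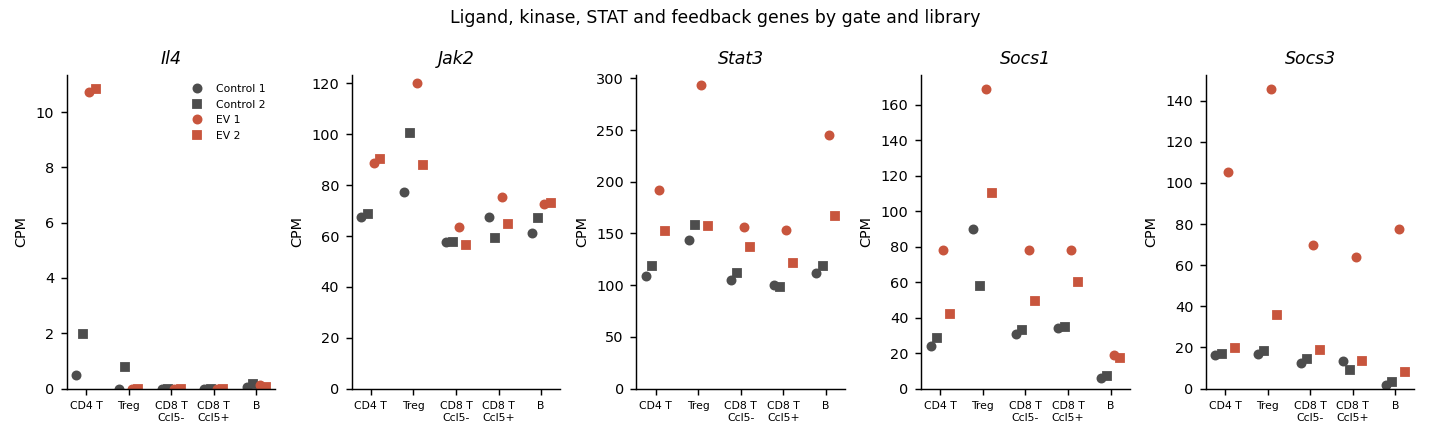
CPM of Il4, Jak2, Stat3, Socs1 and Socs3 in the 5 gates, with 1 point per library. Il4 is seen in CD4 T cells of the EV libraries, and Socs3 is high in EV 1 in every gate.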

How the data were processed

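Per the labels and the study's methods, libraries were made with the droplet 3′ chemistry and the authors deposited UMI counts per gene and barcode, processed with Cell Ranger 7.1.0 on mm10 and without normalization. The annotation release and the handling of introns and strand are not given in the sources used here. The members, lists and tests were chosen with earlier results of these data known.

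Cells with 200 to 5000 genes, at most 20000 UMIs and under 10% mitochondrial UMIs were kept, and raw counts were summed per library and gate. Sums were compared with edgeR 4.0.16 (quasi-likelihood, TMM, filterByExpr) in R 4.3.3, with Benjamini-Hochberg adjustment over all genes tested and a threshold of 0.05. Levels and differences of effects were fitted over 20 sums with library as a block. The scripts were tested on simulated data. Of 32285 gene IDs 32158 were found in GENCODE M21. Named genes were all members in every gate, pathway genes called in any gate or over all cells, the 2 highest of each list in CD4 T cells, and the 3 genes most like each member. Some results that this rule takes are not reported here. Socs3 in CD4 T cells, Cxcr3 and Eomes were named after their values were seen.

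Alternatives were DESeq2 1.42.0, its size factors, no filter on low counts, a replicate block, cells thinned to 1000 UMIs, a ribosomal limit of 60%, no upper limits with a mitochondrial limit of 5%, doublets removed (Scrublet in scanpy 1.11.5, expected rate 6%), stricter gates, each library left out, and, chosen after seeing the data, gates without cells holding marker UMIs. Same-numbered libraries did not deviate together, so the numbers were not taken as pairs. SDs and shares cover the spread of 2 libraries, and UMI counts carry counting error besides.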

Additional observations from a re-analysis of the deposited data

Results flagged for a closer look

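The effect of EVs differed between B and CD4 T cells for 2 members by the test of the difference (edgeR's quasi-likelihood test, Benjamini-Hochberg adjustment, 2 of 35 member tests). Of all genes 1.86% passed for B against CD4 T, and 0% to 0.155% in the other contrasts. Neither member passed in every fit that left out 1 library. The difference for Il21r was -0.32 without Control 1 and -0.28 without EV 1. That for Il7r was -0.47 without Control 1 and -0.60 without EV 2. With all libraries the effect on Il21r in B cells was lower by a log2 difference of -0.44 (SE 0.103, adjusted p = 0.022), with 130 and 134 against 204 and 159 CPM in CD4 T cells and 210 and 184 against 204 and 197 CPM in B cells. For Il7r it was lower by -0.78 (SE 0.194, adjusted p = 0.034). In the B gate the summed T cell markers were 37.8 and 27.3 against 16.8 and 12.6 CPM, beside 11.1 and 8.55 against 6.03 and 4.62 CPM for Il7r. In B cells without a UMI of these markers the log2 change in Il7r was -0.17 (SE 0.245). The difference from CD4 T cells was not tested for those cells. The difference for Il2rb was -1.25 (SE 0.329, adjusted p = 0.052). Il2rb in the B gate rested on 19, 38, 41 and 33 UMIs in Control 1, Control 2, EV 1 and EV 2. Its log2 change there was -0.67 as gated and 0.25 with doublets removed. It was -0.49 with stricter gates and -0.21 in B cells without a T cell marker UMI. Groups of 2 libraries were too small for a check of outlying libraries.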

How the results depend on the processing

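The 2 member calls in CD8 T Ccl5- cells kept their direction under all 14 alternatives other than the 2 added after seeing the data, with log2 differences of 0.40 to 0.56 for Il2rb (called in 12) and 0.30 to 0.45 for Il21r (called in 11). The cause of each change below was not tested, except that thinning leaves fewer UMIs and the emptied gates fewer cells. In the fits without 1 library the lone library is assumed to vary like the other group. With a replicate block, edgeR called 879 of 11733 genes in CD4 T, 112 of 8876 in Treg and 712 of 11881 in CD8 T Ccl5-. It called 78 of 9530 in CD8 T Ccl5+, 1182 of 13270 in B and 2672 of 16106 in all cells. Members called with that block were 3 in CD4 T, 1 in B and 3 in all cells. The replicate numbers share only a number, with correlations of the deviations of -0.067 to 0.070.

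With DESeq2, the count of genes called was 172 in CD4 T, 20 in Treg and 127 in CD8 T Ccl5-. Without the filter on low counts, the count of genes called was 825 in CD4 T, 154 in Treg, 693 in CD8 T Ccl5-, 258 in CD8 T Ccl5+ and 1392 in B. With cells thinned to 1000 UMIs, the count of genes called was 150 in CD4 T, 4 in Treg, 87 in CD8 T Ccl5-, 1 in CD8 T Ccl5+ and 818 in all cells. Without upper limits and with a mitochondrial limit of 5%, the count of genes called was 0 in Treg, 0 in CD8 T Ccl5+ and 688 in B. With doublets removed, the count of genes called was 5 in Treg. With stricter gates, the count of genes called was 141 in CD4 T and 5 in CD8 T Ccl5+. With the gates emptied of marker cells, the count of genes called was 173 in CD4 T, 0 in Treg, 0 in CD8 T Ccl5-, 6 in CD8 T Ccl5+ and 191 in B. With the CD8 T Ccl5- gate emptied of Nkg7, Cxcr3, Eomes and Klrd1 cells, the count of genes called was 0 in CD8 T Ccl5-. With DESeq2, the count of members called was 1 in CD4 T, 2 in CD8 T Ccl5+ and 3 in all cells. In the same order 172 of 13544, 30 of 836 and 1716 of 13891 genes tested were called. Without the filter on low counts, the count of members called was 3 in CD4 T, 1 in CD8 T Ccl5+, 1 in B and 2 in all cells. Of all genes 825 of 19634, 258 of 16711, 1392 of 21630 and 1723 of 24222 were called, in that order. With cells thinned to 1000 UMIs, the count of members called was 0 in CD8 T Ccl5-. Without upper limits and with a mitochondrial limit of 5%, the count of members called was 1 in CD4 T, where 321 of 11878 genes were called. With stricter gates, the count of members called was 2 in CD4 T, namely Il4ra and Il21r, where 141 of 11281 genes were called. With the gates emptied of marker cells, the count of members called was 0 in CD8 T Ccl5-. With the CD8 T Ccl5- gate emptied of Nkg7, Cxcr3, Eomes and Klrd1 cells, the count of members called was 0 in CD8 T Ccl5-.

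With cells thinned to 1000 UMIs, the log2 change was 0.40 for Il2rb and 0.31 for Il21r in CD8 T Ccl5- and 0.34 for Il4ra in all cells, the difference of the EV effect between B and CD4 T was -1.03 for Il7r (adjusted p = 0.18), and the differences in the share of CD8 T Ccl5- cells with a UMI were 1.40 percentage points for Il2rb and 3.76 for Il21r. With the CD8 T Ccl5- gate emptied of Nkg7, Cxcr3, Eomes and Klrd1 cells, Il2rb was 0.0033. With cells thinned to 1000 UMIs, the log2 change between EV and Control turned to 0.045 for Il2rg in Treg, -0.063 for Il2rb in Treg, -0.22 for Il2ra in Treg, -0.045 for Il7r in Treg, -0.28 for Il4ra in Treg, -0.85 for Il15ra in CD8 T Ccl5- and -0.086 for Il21r in B. With cells thinned to 1000 UMIs, the difference of the EV effect turned to -0.48 for Il2ra (Treg minus CD4 T), -0.45 for Il15ra (Treg minus CD4 T), -0.89 for Il15ra (CD8 T Ccl5- minus CD4 T), 0.21 for Il2rb (CD8 T Ccl5+ minus CD4 T), -0.11 for Il2rg (B minus CD4 T), 0.67 for Il15ra (CD8 T Ccl5+ minus CD8 T Ccl5-), 0.048 for Il4ra (CD8 T Ccl5+ minus CD8 T Ccl5-), -0.16 for Il21r (CD8 T Ccl5+ minus CD8 T Ccl5-), -0.11 for Il7r (CD8 T Ccl5+ minus CD8 T Ccl5-), 0.26 for Il2rb (CD8 T Ccl5+ minus CD8 T Ccl5-) and -0.32 for Il2rg (CD8 T Ccl5+ minus CD8 T Ccl5-). With cells thinned to 1000 UMIs, the log2 difference in level turned to 0.12 for Il15ra (CD4 T minus CD8 T Ccl5-), 0.030 for Il7r (CD4 T minus CD8 T Ccl5-), -0.064 for Il2rg (CD4 T minus CD8 T Ccl5+), 0.22 for Il4ra (Treg minus CD8 T Ccl5+), -0.28 for Il2rg (Treg minus CD8 T Ccl5+), -0.0019 for Il2rg (Treg minus B), -0.18 for Il21r (CD8 T Ccl5- minus CD8 T Ccl5+) and -0.059 for Il2rg (CD8 T Ccl5- minus CD8 T Ccl5+). Without upper limits and with a mitochondrial limit of 5%, the log2 change between EV and Control turned to -0.013 for Il21r in B. With doublets removed, the log2 change between EV and Control turned to 0.29 for Il15ra in CD8 T Ccl5+, 0.25 for Il2rb in B and 0.15 for Il2ra in B. With stricter gates, the log2 change between EV and Control turned to -0.28 for Il2ra in CD4 T, 0.0055 for Il7r in CD4 T and 0.23 for Il2ra in B. With stricter gates, the log2 difference in level turned to -0.57 for Il2ra (CD4 T minus CD8 T Ccl5-), 0.11 for Il7r (CD4 T minus CD8 T Ccl5-), 0.020 for Il21r (CD4 T minus CD8 T Ccl5+) and 0.43 for Il2ra (CD8 T Ccl5+ minus B). With the gates emptied of marker cells, the log2 change between EV and Control turned to -0.40 for Il2ra in CD4 T, -0.14 for Il2rb in CD8 T Ccl5-, -0.042 for Il21r in CD8 T Ccl5-, -0.32 for Bcl2 in CD8 T Ccl5- and 0.36 for Il2ra in B. With the CD8 T Ccl5- gate emptied of Nkg7, Cxcr3, Eomes and Klrd1 cells, the log2 change between EV and Control turned to -0.059 for Il7r in CD8 T Ccl5-, -0.19 for Il4ra in CD8 T Ccl5-, -0.018 for Il21r in CD8 T Ccl5- and -0.29 for Bcl2 in CD8 T Ccl5-. With DESeq2's size factors in edgeR, the difference of the EV effect turned to -0.0019 for Il21r (CD8 T Ccl5+ minus CD8 T Ccl5-).

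Over the fits that left out 1 library, the count of genes called ran from 176 to 2081 in CD4 T, 18 to 136 in Treg, 143 to 1668 in CD8 T Ccl5-, 91 to 206 in CD8 T Ccl5+, 97 to 2584 in B and 725 to 3802 in all cells. The highest counts came without EV 1, except in Treg (without EV 2), and the lowest without Control 1, except in Treg (without Control 2) and CD8 T Ccl5+ (without EV 2). The log2 change between EV and Control ran from -0.53 to 0.40 for Il2ra in CD4 T, -0.25 to 0.46 for Il15ra in CD4 T, 0.44 to 0.55 for Il2rb in CD8 T Ccl5-, -1.29 to 0.58 for Il2ra in CD8 T Ccl5-, 0.30 to 0.45 for Il21r in CD8 T Ccl5-, -0.28 to 0.0097 for Il2rg in CD8 T Ccl5+, -0.20 to 0.23 for Il15ra in all cells and 0.32 to 0.42 for Il4ra in all cells. The log2 change between EV and Control ran from -0.21 to 0.0058 for Il7r in CD4 T, -0.040 to 0.42 for Il2ra in Treg, -0.033 to 0.25 for Il15ra in CD8 T Ccl5-, -0.39 to 0.36 for Il15ra in CD8 T Ccl5+, -0.061 to 0.13 for Il21r in B, -0.11 to 0.63 for Il15ra in Treg and -0.041 to 0.30 for Il4ra in CD8 T Ccl5+. Counts of members called, and of members whose EV effect differed between gates, are not reported over these fits. The share of all genes in each fit would be needed beside them. The difference of the EV effect between gates ran from -0.27 to 0.13 for Il4ra (Treg minus CD4 T), -1.69 to 0.75 for Il2ra (CD8 T Ccl5- minus CD4 T), -0.13 to 0.12 for Il2rg (CD8 T Ccl5+ minus CD4 T), -0.59 to -0.28 for Il21r (B minus CD4 T), -1.07 to -0.47 for Il7r (B minus CD4 T), -0.13 to 0.094 for Il4ra (CD8 T Ccl5+ minus CD8 T Ccl5-), -0.40 to 0.65 for Il2ra (Treg minus CD4 T) and -0.39 to 0.89 for Il15ra (Treg minus CD4 T). The difference of the EV effect between gates ran from -0.010 to 0.32 for Il21r (Treg minus CD4 T), -0.070 to 0.090 for Il2rg (Treg minus CD4 T), -0.50 to 0.47 for Il15ra (CD8 T Ccl5- minus CD4 T), -0.27 to 0.20 for Il2rb (CD8 T Ccl5- minus CD4 T), -0.29 to 0.21 for Il2rb (CD8 T Ccl5+ minus CD4 T), -0.25 to 0.72 for Il15ra (B minus CD4 T), -0.040 to 0.047 for Il2rg (B minus CD4 T) and -0.61 to 0.41 for Il15ra (CD8 T Ccl5+ minus CD8 T Ccl5-). The difference of the EV effect between gates ran from -0.083 to 0.076 for Il21r (CD8 T Ccl5+ minus CD8 T Ccl5-), -0.054 to 0.19 for Il7r (CD8 T Ccl5+ minus CD8 T Ccl5-), -0.027 to 0.020 for Il2rb (CD8 T Ccl5+ minus CD8 T Ccl5-), -0.17 to 0.022 for Il21r (CD8 T Ccl5- minus CD4 T), -0.26 to 0.10 for Il21r (CD8 T Ccl5+ minus CD4 T) and -1.28 to 0.53 for Il2ra (B minus CD4 T). The difference in level between gates ran from -0.11 to 0.041 for Il7r (CD4 T minus CD8 T Ccl5-), -0.36 to 0.18 for Il2ra (CD8 T Ccl5+ minus B) and -0.014 to 0.058 for Il2rg (Treg minus CD8 T Ccl5+).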

Other observations

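Outside the lymphocyte gates the highest Il15ra levels were seen in cells with Fscn1 and Ccr7 and without Cd3e or Cd79a, a gate for migratory dendritic cells. These cells numbered 21 to 53 per library, below the minimum of 30 set for description in 2 of the 4 libraries, and were singled out after their values were seen. Il15ra stood at 427 and 527 CPM in the Control and 397 and 611 CPM in the EV libraries, and its ligand Il15 at 561 and 933 against 635 and 806 CPM. Il15ra was seen in 102 of 135 of these cells, and Il2rb in 0 of 135, which allows a share of cells with a UMI of up to 2.22% (counting error only). Macrophages (37 to 77 cells per library, median depth 987 to 1242 UMIs) held few UMIs of any member, such as 5 to 25 for Il2rg. Il2rb there was 0, 29, 0 and 2 UMIs in Control 1, Control 2, EV 1 and EV 2. Il7r was not confined to T cells, with 146 and 300 against 290 and 334 CPM in the migratory dendritic cells. In cells with Siglech and without Cd3e or Cd79a (29 to 60 per library) Il7r was 324 and 326 against 304 and 289 CPM. In cells with Ncr1 and without Cd3e or Cd79a (15 to 44 per library) it was 837 and 468 against 299 and 324 CPM. Il2rb in these Ncr1 cells was 618 and 647 against 792 and 655 CPM, higher than in any of the 5 gates. Each of these gates fell below 30 cells in its smallest library.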
